A study of Sus scrofa with 12 samples.

Results

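The genes described here belong to the transcriptional response to low oxygen. They are HIF1A, EPAS1, EGLN3, ADM, BNIP3, NDRG1, PDK1, CA9, ANKRD37 and DDIT4, chosen by name as known parts of this pathway and found in the count tables by their pig gene symbols. Of the 10 genes, 9 had a gene identifier under their symbol, among 35682 identifiers in all, and all 9 were among the 13844 genes expressed highly enough to be tested. BNIP3 had no identifier under its symbol in the table used here, so its expression was not analysed here.

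In normal oxygen, prolyl hydroxylases of the EGLN family mark the HIF alpha subunits, encoded by HIF1A and EPAS1, for binding by the VHL ubiquitin ligase and for destruction. In low oxygen the subunits escape this mark, pair with ARNT and bind DNA at short motifs with the core ACGTG or GCGTG near their target genes. The targets shift metabolism from mitochondrial oxidation to glycolysis, widen and build vessels, buffer acid and slow protein synthesis. Because this control acts on the HIF proteins, the mRNA level of HIF1A or EPAS1 does not by itself report the activity of the pathway.

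RNA was sequenced from the hearts of 6 female Yorkshire pigs, and each animal gave 1 border zone and 1 remote zone library, taken at the mid level. In every animal the left anterior descending coronary artery had been closed by a balloon for 60 minutes and reopened (ischemia-reperfusion injury) at an age of 10 to 12 weeks. From day 9 every animal was immunosuppressed with tacrolimus at 0.75 mg/kg/day, with 500 mg of mycophenolate mofetil a day and with a daily prednisolone dose of 20 mg, and a left thoracotomy followed on day 14. At the thoracotomy the animals received either vascular organoids of human EPC and SMC or fibrin glue alone. The hearts were taken 28 days later. The border zone was the tissue next to the infarct and the remote zone was posterior wall. The labels used here do not say which animal received which treatment, so the treatments were not compared. The RNA sequencing of the paper covered both treatment groups, so each zone mixes them. Values are given as range and median or per animal. The remote zone is part of the same injured, immunosuppressed heart, and no library of an uninjured heart was analysed here.

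Total counts were 15130210 to 30526110 for border zone libraries and 20091415 to 31618680 for remote zone libraries. The border zone library of animal 3622 had the lowest total and also counts on 28024 genes, against 16932 to 18076 in the remote zone libraries. Mitochondrial genes took 5.69% to 17.3% of the border zone counts and 13.6% to 33.5% of the remote zone counts. Heart muscle markers were present: all 9 cardiomyocyte genes identified had counts in every library. Their summed level in CPM, counts scaled by TMM to a library of 1000000, was 11137 in the border zone of animal 1022, 40817 to 65770 in the border zone of the other 5 animals and 52389 to 96563 in the remote zone. For 12 fibroblast and matrix genes the sum was 82944 CPM in that same library, 4099 to 13805 CPM in the other border zone libraries and 1341 to 3403 CPM among remote zone libraries. Animal 1022 thus gave the border zone library with the least muscle and the most matrix RNA. In bulk tissue, fewer cells of a type and less RNA per cell cannot be told apart.

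To show where the HIF core motif lies near these genes, the 250 bases before and 50 bases after each RefSeq gene start were searched on both strands of Sscrofa11.1 for ACGTG and GCGTG. A match was found for 6 of the 10 genes, and 49.6% of 19556 promoters of this length held at least 1 (22.3% ACGTG, 37.4% GCGTG). The windows below are shown because they carry the upstream matches of ADM, PDK1, ANKRD37 and DDIT4, genes widely used as HIF targets, read along the strand of each gene. Capitals mark the matches, and a match on the opposite strand reads CACGT or CACGC.
ADM, chr2:49231660-49231694, minus strand: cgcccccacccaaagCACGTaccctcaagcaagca
PDK1, chr15:78608201-78608235, plus strand: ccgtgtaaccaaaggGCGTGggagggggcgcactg
PDK1, chr15:78608256-78608290, plus strand: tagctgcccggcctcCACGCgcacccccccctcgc
ANKRD37, chr15:46445565-46445599, plus strand: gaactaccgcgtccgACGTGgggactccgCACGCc
ANKRD37, chr15:46445635-46445669, plus strand: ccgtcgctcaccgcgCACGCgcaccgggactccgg
DDIT4, chr14:75117476-75117510, plus strand: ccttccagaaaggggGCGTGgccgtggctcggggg
DDIT4, chr14:75117571-75117605, plus strand: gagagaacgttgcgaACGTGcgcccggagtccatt

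The match of ADM began at -158, counted from the gene start with negative values upstream, those of PDK1 at -178 and -123, and those of DDIT4 at -217 and -122. ANKRD37 held 6 matches, 3 of them upstream at -209, -195 and -139, and its 2 matches at 8 and 9 are the same CACGTG read on both strands, a palindrome found in 7.92% of promoters. BNIP3 held 8 matches, 7 of them GCGTG, in a window with more CpG pairs than 99.0% of promoters. HIF1A held 1 match, at 46. No match was found in the windows of EPAS1, EGLN3, NDRG1 and CA9, which says only that these letters are not in those windows. The upstream sequence of NDRG1 is shown because this gene had the largest difference between the zones among the 9 genes; it holds no match and so no capitals.
NDRG1, chr4:8014195-8014444, plus strand: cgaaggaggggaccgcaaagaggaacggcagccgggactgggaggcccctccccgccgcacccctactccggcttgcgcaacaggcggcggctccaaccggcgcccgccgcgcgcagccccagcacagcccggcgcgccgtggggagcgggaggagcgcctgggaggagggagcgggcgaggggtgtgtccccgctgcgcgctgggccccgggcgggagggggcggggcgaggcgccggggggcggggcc

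The border zone was compared with the remote zone to ask whether the hypoxia response genes differed in tissue next to the infarct. None of the 9 genes passed the threshold, an adjusted p under 0.05 (edgeR quasi-likelihood test, Benjamini-Hochberg over all genes tested), which 2.07% of all genes passed (287 of 13844), 2.06% being higher in the border zone and 0.0144% lower. At an unadjusted p under 0.05 the count was 1 of 9, NDRG1, against 3425 of all 13844 genes. Counts of list genes at this level, given further on, are to be read against that share. With the animal as a block the count was 0 of 9 (0.296% of all genes). NDRG1 passed by the DESeq2 Wald test, which called 10.7% of all genes (8.62% higher, 2.11% lower), and with library totals in place of TMM, which called 11.2%. Over all genes the median log2 fold change was 0.04, and 0.32 with library totals, so values on that scale are to be read against 0.32. Of all genes tested, 53.3% had a log2 fold change above 0. The median log2 fold change of the 9 genes was -0.05, with 3 above 0 and 6 below. It was -0.04 without the border zone library of animal 1022.

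**Figure D1:**
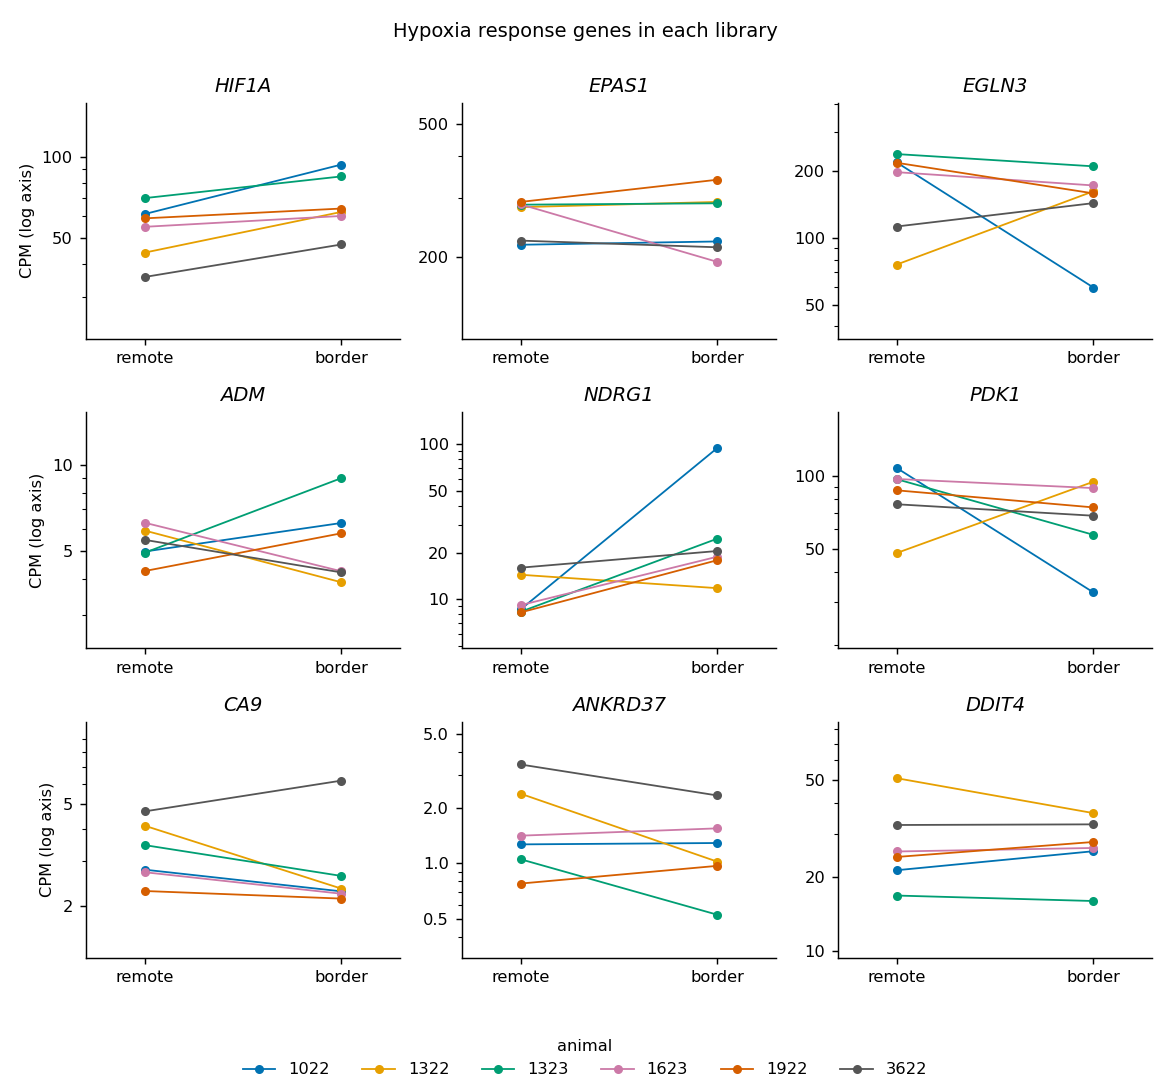
Level of each of the 9 hypoxia response genes in CPM (log axis, scaled by TMM) in the remote and the border zone, with each line joining both libraries of 1 of 6 animals. The HIF1A lines go up in 6 of 6 animals and the NDRG1 lines in 5 of 6, while the lines of EGLN3 and PDK1 cross, with animals 1022 and 1322 moving in opposite directions.

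HIF1A and EPAS1 encode the oxygen-labile subunits. HIF1A (ENSSSCG00000005096, chr1:190625436-190673926) ranged from 47.1 to 93.6 CPM in the border zone, with a median of 63.3 CPM, and from 35.6 to 70.2 CPM in the remote zone, with a median of 56.9 CPM. The zones overlapped, and only the border zone libraries of animals 1022 and 1323 lay above every remote zone library. Animal 3622 was lowest in both zones. Within animals the border zone was higher in 6 of 6, a pattern that 11.7% of all genes showed. The within-animal difference was 0.61 on the log2 scale in animal 1022, 0.50 in animal 1322, 0.40 in animal 3622, 0.27 in animal 1323, 0.13 in animal 1623 and 0.12 in animal 1922. The log2 fold change was 0.34 (SE 0.20, 95% interval -0.09 to 0.78, adjusted p = 0.303), and with the animal as a block 0.34 (SE 0.12, adjusted p = 0.115).

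EPAS1 (ENSSSCG00000008443, chr3:94167759-94253662), the HIF alpha subunit best known from endothelium, ranged from 193 to 340 CPM in the border zone (median 255) and from 217 to 292 CPM in the remote zone (median 284). The zones overlapped, but the border zone spread was the wider: of its 6 libraries 2 lay above and 2 below every remote zone library, with animal 1922 highest and animal 1623 lowest of all 12. EPAS1 differed between the zones by a log2 fold change of -0.03 (SE 0.18, 95% interval -0.42 to 0.35, adjusted p = 0.927), so a difference beyond 0.42 in either direction lay outside the interval. In 4 of 6 animals the border zone value was the higher, and the largest within-animal difference was -0.57, in animal 1623. An annotated lncRNA on the opposite strand overlaps 2055 bases of the span of EPAS1, introns included. The libraries carried no strand, so reads cannot be told apart where exons of both overlap, and the overlap of exons was not computed.

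The HIF machinery around these subunits was tested through 15 genes for dimer partners, sensors, other parts of the VHL ligase and coactivators. Of the 17 genes listed, VHL itself and the sensor EGLN2 had no identifier under their symbol and were not tested. None of the 15 passed the threshold by edgeR (5 at an unadjusted p under 0.05). DESeq2 called 1 higher and 1 lower, ARNT2 and CITED2. Their median log2 fold change was -0.28 against 0.04 over all genes, and -0.14 without the border zone library of animal 1022. ARNT2, a dimer partner best known from neurons, had a median of 2.45 CPM in the border zone and 0.768 CPM in the remote zone (log2 fold change 2.33, SE 0.77, adjusted p = 0.101), and with the border zone library of animal 1022 left out its log2 fold change was 1.37 (adjusted p = 0.266). CITED2 competes with HIF for its coactivators and had a median of 96.6 CPM in the border zone and 161 CPM in the remote zone (log2 fold change -0.69, SE 0.24, adjusted p = 0.113). ELOB, a subunit of the VHL ligase, differed by -0.67 (SE 0.24, adjusted p = 0.127). CITED2 and ELOB were lower in all 6 border zones than in the remote zone of the same animal, as 1535 of 13844 genes were, while ARNT2 was higher in 6 of 6. The summed level of the 15 genes and that of the cardiomyocyte markers were both lower in the border zone of every animal. The part of the cardiomyocyte markers in these values was not tested.

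EGLN3 encodes an oxygen-sensing prolyl hydroxylase that is itself a HIF target. Its level (ENSSSCG00000001963, chr7:65805513-65833536) ranged from 59.9 to 210 CPM in the border zone (median 161) and from 76.0 to 239 CPM in the remote zone (median 208). The lowest of all 12 came from the border zone of animal 1022, the next lowest from the remote zone of animal 1322, and the zones overlapped. EGLN3 had a log2 fold change of -0.23 (SE 0.32, 95% interval -0.91 to 0.45, adjusted p = 0.692), which was -0.07 without the border zone library of animal 1022 and -0.41 without animal 1322. The animals did not share a direction: the border zone was higher in 2 of 6, and the within-animal difference ran from -1.87 in animal 1022 to 1.09 in animal 1322.

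PDK1 phosphorylates pyruvate dehydrogenase and so keeps pyruvate out of mitochondrial oxidation. It (ENSSSCG00000015958, chr15:78608394-78650958) ranged from 32.9 to 94.6 CPM in the border zone (median 71.2) and from 48.0 to 108 CPM in the remote zone (median 92.0). The zones overlapped, with the lowest value again in the border zone of animal 1022 and the next in the remote zone of animal 1322. PDK1 had a log2 fold change of -0.30 (SE 0.25, 95% interval -0.84 to 0.24, adjusted p = 0.475), which was -0.16 without the border zone library of animal 1022 and -0.55 without animal 1322. The border zone was lower in 5 of 6 animals, by 1.71 on the log2 scale in animal 1022 and by 0.12 to 0.76 in animals 1323, 1623, 1922 and 3622, and it was higher by 0.98 in animal 1322. On the opposite strand 2 annotated lncRNAs overlap the span of PDK1, by 22548 and 4119 bases with introns included, while its exons hold 3905 bases. Unstranded reads may belong to either gene where exons overlap, and the overlap of exons was not computed.

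**Figure D2:**
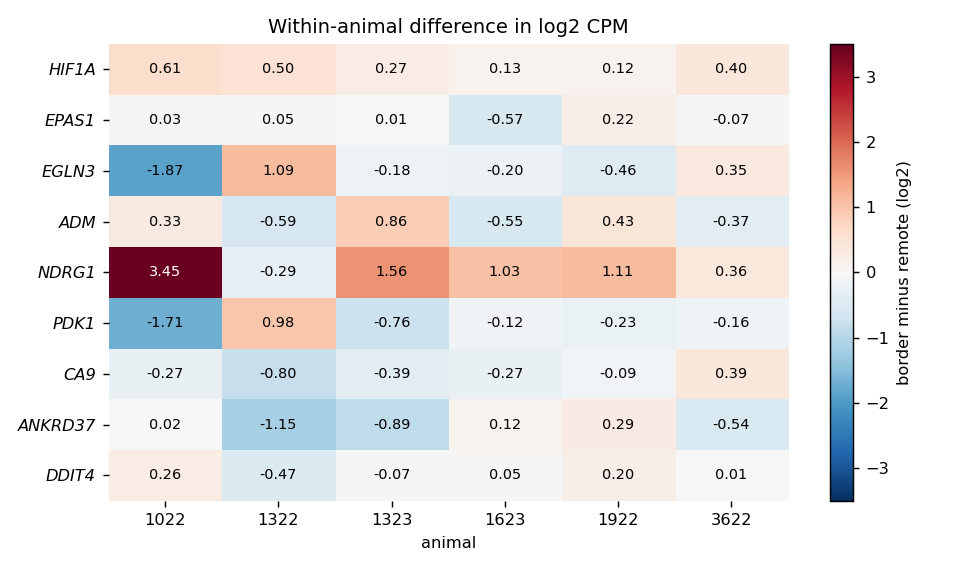
Difference in log2 CPM between the border and the remote zone (border minus remote) of the same animal, for the 9 genes in rows and the 6 animals in columns; red is higher in the border zone. The largest values are those of animal 1022, 3.45 for NDRG1, -1.87 for EGLN3 and -1.71 for PDK1, and the HIF1A row is positive throughout.

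The other kinases, phosphatases and subunits around pyruvate dehydrogenase numbered 10, and none passed the threshold by edgeR or DESeq2 (1 at an unadjusted p under 0.05). All 10 fold changes were below 0, while 53.3% of all genes lay above 0. The median of the 10 was -0.41, and -0.24 without the border zone library of animal 1022. PDK2, another of the kinases, had medians of 134 CPM in the border zone and 202 CPM in the remote zone and was lower in 6 of 6 animals (log2 fold change -0.59, SE 0.27, adjusted p = 0.201). PDHB and PDHX, subunits of the complex, differed by -0.55 (SE 0.27, adjusted p = 0.227) and -0.50 (SE 0.35, adjusted p = 0.394). The 9 cardiomyocyte genes had a median log2 fold change of -0.51 (-0.29 without the border zone library of animal 1022). All were below 0 and none was past the threshold by edgeR (1 lower by DESeq2, TNNI3), and their part in these values was not tested.

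Among 16 glucose transporter, glycolytic enzyme and lactate carrier genes known as HIF targets, none passed the threshold by edgeR (4 at an unadjusted p under 0.05), and DESeq2 called 1, TPI1, lower. Their median was -0.10, with 6 above 0 and 10 below, while 53.3% of all genes lay above 0. GAPDH had medians of 8109 CPM in the border zone and 11119 CPM in the remote zone (log2 fold change -0.79, SE 0.33, adjusted p = 0.167), and TPI1 differed by -0.66 (SE 0.24, adjusted p = 0.123). ENO1, an enolase, lay on the other side with 0.77 (SE 0.31, adjusted p = 0.157), from medians of 146 and 106 CPM, and with 0.30 (adjusted p = 0.280) once the border zone library of animal 1022 was left out. In 6 of 6 animals GAPDH and TPI1 were lower in the border zone, and in 5 of 6 ENO1 was higher. The summed level of this list and that of the cardiomyocyte markers were both lower in the border zone of every animal. The part of the cardiomyocyte markers in these values was not tested.

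NDRG1, a cytoplasmic stress-response protein and a common readout of hypoxia in tumors, had the largest difference of the 9 genes. Its level (ENSSSCG00000005944, chr4:8014445-8069335) was 94.7 CPM in the border zone of animal 1022 and 24.6, 20.5, 18.8, 17.9 and 11.8 CPM in those of animals 1323, 3622, 1623, 1922 and 1322. In the remote zone it was 16.0 CPM in animal 3622, 14.4 CPM in animal 1322 and 8.21 to 9.16 CPM in the other 4 animals. Of the border zone libraries, 5 of 6 lay above every remote zone library, and the exception was animal 1322, which was also the only animal with a lower border zone. The log2 fold change was 1.55, or 2.92-fold (SE 0.45, 95% interval 0.57 to 2.52), with an adjusted p of 0.0801, short of the threshold. With the animal as a block it was 1.18 (SE 0.43, adjusted p = 0.124), and DESeq2 gave an adjusted p of 0.0182.

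The NDRG1 value depended on animal 1022, whose within-animal difference was 3.45 on the log2 scale, against -0.29 to 1.56 in the other 5 animals. With its border zone library left out the log2 fold change was 0.79, still short of the threshold, and without both libraries of this animal it was 0.74 (adjusted p = 0.172). The border zone was still higher in 4 of the other 5 animals. That library also held the lowest cardiomyocyte sum (11137 CPM) and the highest fibroblast and matrix sum (82944 CPM) of the 12. It was also highest for macrophage genes (1768 CPM, against 142 to 442 in the other border zone libraries), for smooth muscle and pericyte genes (3182 CPM, against 768 to 1125) and for neutrophil genes (7.67 CPM, against 0.437 to 2.51). The part of these in the NDRG1, EGLN3 and PDK1 values was not tested. The relatives NDRG2, NDRG3 and NDRG4 did not pass the threshold by edgeR or DESeq2, and none of the 3 had an unadjusted p under 0.05. Their log2 fold changes were -0.33 (SE 0.24), 0.35 (SE 0.17) and 0.01 (SE 0.30), the last of these changing sign under other scalings.

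**Figure D3:**
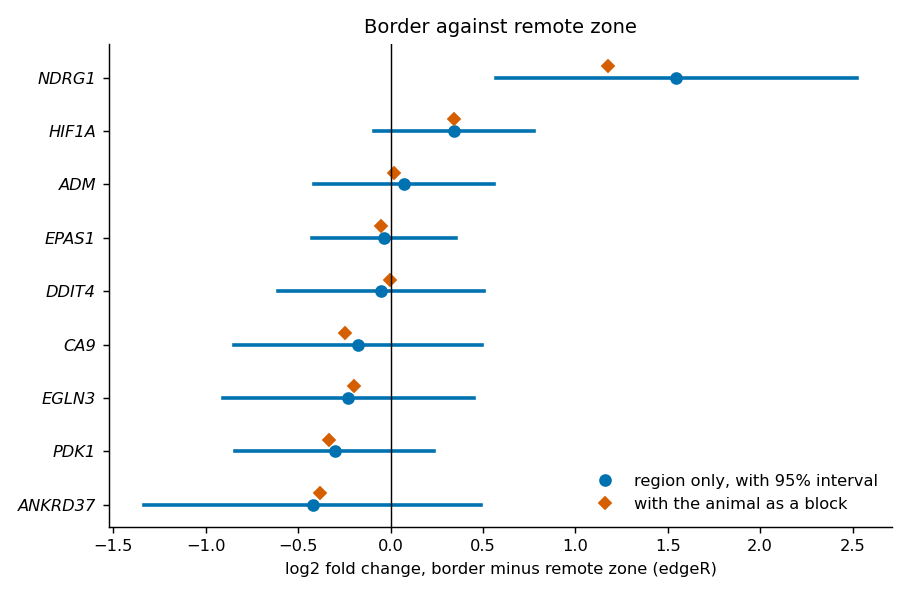
Log2 fold change (border minus remote zone, edgeR) of the 9 genes, with its 95% interval (line) from the fit with region only (circles, 6 border zone and 6 remote zone libraries) and the value with the animal as a block (diamonds). Only the NDRG1 interval, 0.57 to 2.52, lies wholly on one side of 0, and its adjusted p was 0.0801.

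ADM encodes adrenomedullin, a secreted peptide that widens vessels. It was a low-level transcript (ENSSSCG00000013408, chr2:49229223-49231521), with 3.90 to 9.01 CPM in the border zone (median 5.02) and 4.26 to 6.29 CPM in the remote zone (median 5.24), from 69 to 306 counts per library. The border zone spread was the wider, holding both the lowest and the highest of the 12 values. The border zone was higher in 3 of 6 animals, and the log2 fold change was 0.07 (SE 0.23, 95% interval -0.41 to 0.56, adjusted p = 0.874).

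Adrenomedullin acts mainly on the receptor CALCRL joined to RAMP2 or RAMP3, while CALCRL with RAMP1 mainly binds a related peptide, CGRP. CALCRL was higher in the border zone, with 24.3 to 38.3 CPM (median 30.5) against 16.1 to 24.5 CPM (median 18.0), and a log2 fold change of 0.72 (SE 0.16, adjusted p = 0.0338). It was higher in 6 of 6 animals, and 5 of 6 border zone libraries lay above every remote zone library. With the animal as a block its adjusted p was 0.0697, and with 1 animal left out it ran from 0.0371 (without animal 1322) to 0.164 and was over 0.05 in the other 5 runs. The call was also lost with DESeq2 size factors (adjusted p = 0.0550) and without a filter (adjusted p = 0.0884). CALCRL was the only one of 5 receptor genes past the threshold by edgeR. RAMP1 lay the other way, at 129 to 411 CPM against 453 to 710 CPM, with no overlap between the zones, a log2 fold change of -0.76 (SE 0.26) and an adjusted p of 0.109 by edgeR and 0.0298 by DESeq2; 0.701% of all genes had every border zone library below every remote zone library. RAMP3 differed by -0.45 (SE 0.24, adjusted p = 0.255). The 10 endothelial marker genes had a median log2 fold change of 0.12, with none past the threshold by edgeR or DESeq2.

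CA9, a cell-surface carbonic anhydrase that exports acid and is a widely used hypoxia marker, was near the bottom of the measured range. It (ENSSSCG00000059309, chr1:236393727-236400994) stood at 2.14 to 6.17 CPM in the border zone (median 2.31) and 2.29 to 4.68 CPM in the remote zone (median 3.11), from 44 to 105 counts per library. The border zone library of animal 3622 was the highest of the 12, above the next border zone value of 2.62 CPM, and animal 3622 was also the only animal with a higher border zone. CA9 had a log2 fold change of -0.18 (SE 0.31, 95% interval -0.85 to 0.49, adjusted p = 0.765), and -0.52 (adjusted p = 0.232) without the border zone library of animal 3622.

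Of 6 other carbonic anhydrases tested, 1 passed the threshold, CA3, an enzyme best known from skeletal muscle and fat. CA3 was at 0.341 to 6.36 CPM in the border zone (median 1.57) and 0 to 0.461 CPM in the remote zone (median 0.145), higher in 6 of 6 animals, with a log2 fold change of 3.31 (SE 0.77, adjusted p = 0.0440, and 0.0703 with the animal as a block). These levels are low, so this fold change rests on few reads, and with 1 animal left out CA3 passed without animal 1322, did not pass in 4 runs and was under the filter without animal 1323. It also did not pass with DESeq2 size factors (adjusted p = 0.0520), without a filter (adjusted p = 0.0610) or without the border zone library of animal 3622 (adjusted p = 0.0583). CA13 and CA2 differed by 1.53 (SE 0.55, adjusted p = 0.121) and 0.85 (SE 0.60, adjusted p = 0.394).

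DDIT4 encodes REDD1, which holds back the growth kinase mTORC1 under hypoxia and other stress. It (ENSSSCG00000031888, chr14:75117708-75119907) ranged from 16.0 to 36.5 CPM in the border zone (median 27.1) and from 16.8 to 50.6 CPM in the remote zone (median 24.8). Animal 1322 was highest and animal 1323 lowest in both zones, and the zones overlapped. The log2 fold change was -0.05 (SE 0.26, 95% interval -0.61 to 0.50, adjusted p = 0.923), and the within-animal difference ran from -0.47 in animal 1322 to 0.26 in animal 1022.

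None of 13 other mTORC1 regulators passed the threshold by edgeR (5 at an unadjusted p under 0.05), while DESeq2 called 2, SESN3 and SESN2, higher. SESN3, a stress-induced sestrin, was at 7.79 to 40.3 CPM in the border zone (median 21.2) and 2.50 to 14.6 CPM in the remote zone (median 4.85). It was higher in 6 of 6 animals, with a log2 fold change of 1.79 (SE 0.48, adjusted p = 0.0592, and 0.0564 with the animal as a block). SESN2, another sestrin, was at 1.41 to 8.46 CPM in the border zone and 1.25 to 2.23 CPM in the remote zone (adjusted p = 0.0956). DDIT4L, the relative of DDIT4 best known from muscle, differed by -0.78 (SE 0.37, adjusted p = 0.209).

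ANKRD37, a small ankyrin-repeat protein whose gene is a HIF target, was the lowest of the 9. It (ENSSSCG00000015798, chr15:46445789-46450046) had 0.530 to 2.32 CPM in the border zone (median 1.16) and 0.780 to 3.41 CPM in the remote zone (median 1.34), from 15 to 51 counts per library. Animal 3622 was highest in both zones and the zones overlapped. ANKRD37 had a log2 fold change of -0.42 (SE 0.42, 95% interval -1.33 to 0.49, adjusted p = 0.567), the widest interval but that of NDRG1, and -0.67 without the border zone library of animal 3622, and 3 of 6 animals had a higher border zone. The span of ANKRD37, introns included, shares 1129 bases with UFSP2 on the opposite strand. Part of its few counts may belong to either gene if exons overlap there, which was not computed.

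BNIP3, for which no expression value is given, is a mitochondrial receptor that starts mitophagy in hypoxia. Of 15 other mitophagy genes, none passed the threshold by edgeR or DESeq2 (4 at an unadjusted p under 0.05). Their median log2 fold change was -0.19, and -0.11 without the border zone library of animal 1022. Of the 15 genes 13 lay below 0, while 53.3% of all genes lay above 0. The cardiomyocyte markers lay the same way, with a median of -0.51 (-0.29 without that library) and 9 of 9 below 0. Their sum was lower in the border zone of every animal, and their part in the mitophagy values was not tested. PINK1, the kinase that marks damaged mitochondria, had medians of 475 CPM in the border zone and 638 CPM in the remote zone (log2 fold change -0.58, SE 0.25, adjusted p = 0.182) and was lower in 6 of 6 animals. PHB2, an inner-membrane mitophagy receptor, differed by -0.60 (SE 0.23, adjusted p = 0.136) and MAP1LC3A, an autophagosome protein, by -0.52 (SE 0.23, adjusted p = 0.174).

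Of 27 further HIF targets tested, 2 passed the threshold and both were higher in the border zone. The 27 genes had a median log2 fold change of 0.17 (0.10 without the border zone library of animal 1022), with 15 above 0 and 12 below, and 12 had an unadjusted p under 0.05, against 3425 of all 13844 genes. LOX, the lysyl oxidase that crosslinks collagen, was at 12.0 to 205 CPM in the border zone (median 30.0) and 3.76 to 8.38 CPM in the remote zone (median 6.97). The zones did not overlap, as for 1.99% of all genes with every border zone library above every remote zone library, and the log2 fold change was 3.11 (SE 0.60, adjusted p = 0.0276). TMEM45A, a membrane protein of uncertain role, was at 1.95 to 13.4 CPM against 1.02 to 2.40 CPM (log2 fold change 1.85, SE 0.44, adjusted p = 0.0460). With the animal as a block neither passed, with adjusted p = 0.0798 for LOX and 0.0773 for TMEM45A. BHLHE41, a transcriptional repressor of the clock, was at 8.08 to 59.7 CPM against 3.73 to 8.71 CPM and fell short of the threshold (log2 fold change 1.78, SE 0.46, adjusted p = 0.0557). BHLHE41 passed by DESeq2 (adjusted p = 0.00384), with library totals (adjusted p = 0.0268) and, at a smaller log2 fold change of 1.05, without the border zone library of animal 1022 (adjusted p = 0.0489).

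DESeq2 called 7 of the 27 higher, against 8.62% of all genes, and without the border zone library of animal 1022 edgeR called 3. Both genes that passed were higher in 6 of 6 animals. LOX did not pass without animal 1323, 1623, 1922 or 3622 (adjusted p up to 0.110) and had a log2 fold change of 1.92 without animal 1022. TMEM45A passed only without animal 1322 among the runs with an animal left out (adjusted p 0.0415 to 0.142). Without a filter neither passed (adjusted p = 0.0639 for LOX and 0.0577 for TMEM45A), and TMEM45A also fell short with DESeq2 size factors (0.0549), with at least 10 counts in every library (0.0542) and without the border zone library of animal 3622 (0.0583).

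The 12 fibroblast and matrix markers moved in the same direction, with 11 of 12 past the threshold (1 of 12 with the animal as a block), a median log2 fold change of 2.96 and a higher summed level in 6 of 6 animals, and their part in the LOX and TMEM45A values was not tested. COL1A1, for example, differed by 4.05 (SE 0.81, adjusted p = 0.0295) and, without animal 1022, by 2.37. Of 11 macrophage genes, edgeR called 1, LYZ (log2 fold change 4.61, SE 1.05, adjusted p = 0.0404, and 0.0814 with the animal as a block), none without the border zone library of animal 1022, and DESeq2 called 5. All 11 were above 0 with an unadjusted p under 0.05, with a median log2 fold change of 1.52 that was 0.61 without that library. Of 9 smooth muscle and pericyte genes and 1 neutrophil gene, edgeR called none, while DESeq2 called 4 and 1 higher. The smooth muscle and pericyte genes had a median of 1.13 (0.76 without that library, when edgeR called 1), with 8 of 9 at an unadjusted p under 0.05. The neutrophil gene, CSF3R, stood at 2.39, and at 1.36 without that library. Neither tool called any of 2 red blood cell genes. The part of these cell types in the LOX and TMEM45A values was not tested either. VEGFA, the vessel growth factor and best known HIF target, was named after its value was seen; it ranged from 30.7 to 170 CPM in the border zone and from 63.2 to 149 CPM in the remote zone (log2 fold change -0.19, SE 0.34, adjusted p = 0.771). EPO had 0 counts in all 12 libraries.

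**Figure D4:**
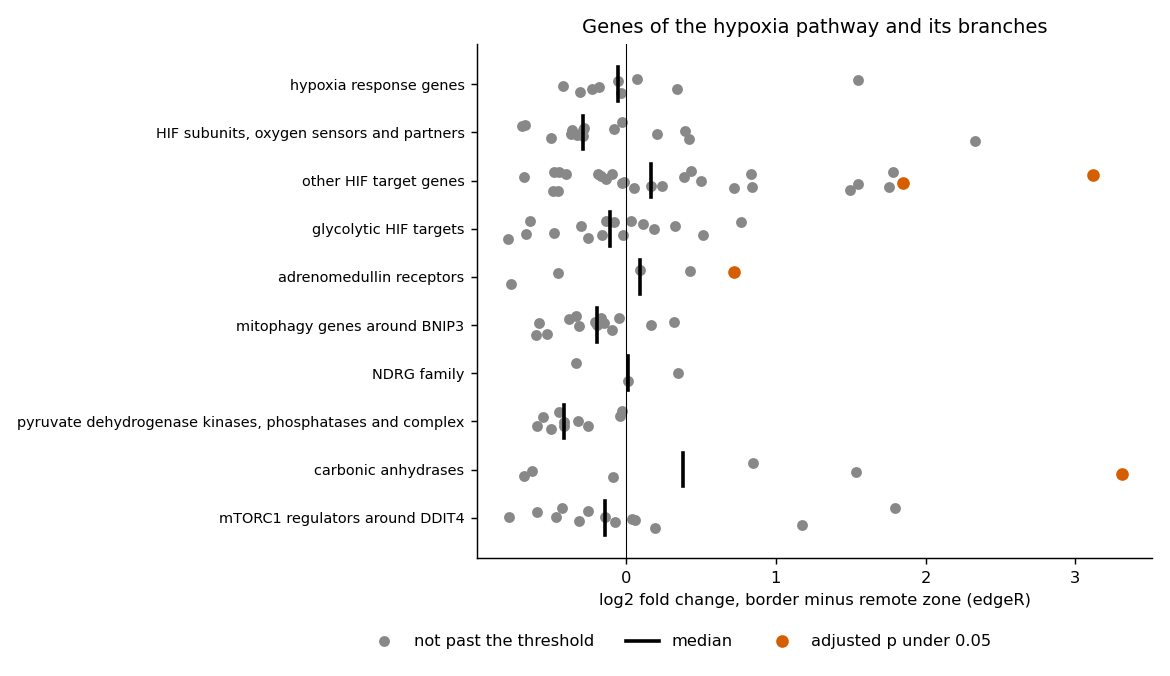
Log2 fold change (border minus remote zone, edgeR, 6 libraries each) of every tested gene (1 dot) of the hypoxia response genes and of 9 related gene lists, with the median as a bar; orange dots had an adjusted p under 0.05. LOX and TMEM45A among the other HIF targets, CALCRL among the adrenomedullin receptors and CA3 among the carbonic anhydrases are the orange dots, and all 10 pyruvate dehydrogenase genes lie below 0.

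Per kilobase of RefSeq exon, the order of the median levels in the remote zone was EPAS1 (99.4 CPM per kilobase), EGLN3 (64.6), PDK1 (23.6), HIF1A (19.9), DDIT4 (13.9), ADM (3.51), NDRG1 (2.97), CA9 (1.40) and ANKRD37 (0.605). EPAS1 stood apart from EGLN3 in the remote zone, at 76.0 to 102 against 23.6 to 74.2 CPM per kilobase. Gaps without overlap also lay between DDIT4 and ADM and between NDRG1 and CA9, and the other neighbours in this order overlapped. In the border zone HIF1A (22.1 CPM per kilobase) stood above PDK1 (18.2), and NDRG1 (6.58) above ADM (3.36). The lengths are of RefSeq models, not of the gene models on which the authors counted reads, and a model that lacks part of a transcript raises the value.

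The 9 genes did not vary together over the 12 libraries. Of 36 pairs, 22 had a Pearson r of log2 CPM below 0, and the median r was -0.10. These libraries come in pairs from 6 animals and share depth and tissue makeup, so r is a description. The pairs most alike were EGLN3 and PDK1 (r = 0.83), CA9 and ANKRD37 (r = 0.72) and ANKRD37 and DDIT4 (r = 0.67). The pairs most opposed were NDRG1 and PDK1 (r = -0.86) and HIF1A and ANKRD37 (r = -0.80). This order changed without the border zone library of animal 1022. HIF1A and EGLN3 then had the highest r (0.75, against 0.11 with it), followed by CA9 and ANKRD37 (0.73), and EGLN3 and PDK1 stood at 0.68. HIF1A and ANKRD37 (-0.93) and EGLN3 and DDIT4 (-0.88, against -0.62 with it) were then the most opposed, and NDRG1 and PDK1 stood at -0.67.

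Among 11725 other tested genes with a symbol, those most like each of the 9 across the 12 libraries were found by Pearson r of log2 CPM. HIF1A was most like TMED10, a cargo receptor of the secretory pathway (r = 0.99), and EP300, the acetyltransferase that serves HIF as a coactivator (r = 0.98). NDRG1 was most like ACTG1, a cytoplasmic actin (r = 0.99), and SDC3, a syndecan (r = 0.99); without the border zone library of animal 1022 these were 0.96 and 0.95. EGLN3 was most like PDE4DIP, a phosphodiesterase anchor (r = 0.96), and ZYG11B (r = 0.96), and PDK1 like AP4S1 (r = 0.96) and ECHDC3 (r = 0.96). For CA9 they were THAP3 (r = 0.95) and FAM50A (r = 0.91), for ANKRD37 CEP131 (r = 0.93) and AP2S1 (r = 0.91), and for DDIT4 GALR1 (r = 0.95) and TMEM140 (r = 0.93). EPAS1 and ADM had the least similar nearest genes, DYRK2 (r = 0.85) and TAF15 (r = 0.84) for EPAS1, and PDLIM4 (r = 0.81) and PPP1R16B (r = 0.80) for ADM.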

How the data were processed

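Libraries were prepared by the authors from poly(A) RNA without strand information and sequenced from both ends. The authors aligned the reads to Sscrofa11.1 with STAR and counted them on Ensembl genes with featureCounts. The deposited values are raw counts per gene, 1 file per library, without normalization. How reads that fit several genes were counted is not given in the sources used here. PCR copies were not told apart from molecules. Region and animal were read from the sample titles. The extraction text, the same for all 12 samples, names only mid-border zone tissue, whereas 6 titles name the remote zone and the paper's methods describe both zones. All comparisons rest on the titles.

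Here counts were scaled by TMM and filtered with filterByExpr (13844 genes kept), and the border zone was compared with the remote zone by edgeR 4.0.16 (quasi-likelihood, robust, region as the only term, R 4.3.3, limma 3.58.1) with Benjamini-Hochberg adjustment over all genes tested. SEs were derived from the log2 fold change and the F statistic. Log2 CPM used a prior count of 2. Symbols were paired with 15623 of the 35682 identifiers. Gene positions, promoters and exon lengths come from RefSeq on Sscrofa11.1. Python 3.11.15, pandas 2.3.3, NumPy 2.4.6, SciPy 1.17.1 and matplotlib 3.10.9 were used.

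The 10 members and all gene lists were chosen with earlier results of these data known. Named were the members, from each list up to 5 genes past the threshold (by size of fold change) or, where fewer than 3 passed, those of largest absolute fold change up to 3 in all, and the 2 nearest genes of each member by Pearson r. Not all of the marker genes so named are given in the text. Lists covered the HIF machinery, other HIF targets, glycolysis, adrenomedullin receptors, mitophagy, the NDRG family, pyruvate dehydrogenase, carbonic anhydrases, mTORC1 and markers of 7 cell types.

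Both libraries with the same number come from the same animal, so the numbers pair the libraries. Deviations from the region means correlated across genes with r from -0.03 (animal 1022) to 0.57 (animal 1323), over 0.1 in 4 of 6 pairs. No 2 libraries agreed within sampling noise (lowest chi-square per gene 26.3). On simulated data for this comparison (13844 genes), the edgeR steps called 85.3% of genes given a 4-fold change and 30.3% of genes given a 2-fold change. DESeq2 called 92.6% and 53.5% of these, but made 31 false calls where edgeR made 3, so calls by DESeq2 alone are less secure. The simulation held no animal effect and no library that stood apart, unlike these data. Counting error only is covered by counts. The p-values of edgeR with region only, and of DESeq2, measure the spread among the libraries within each zone and leave the pairing out. The fit with the animal as a block uses the pairing. Alternatives were the animal as a block; DESeq2 1.42.0 and its size factors; scaling by library totals; other filters (none, or a minimum of 10 counts per library); removal of mitochondrial genes; and leaving out each animal, or the border zone library of 3622 or of 1022.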

Additional observations from a re-analysis of the deposited data

Results flagged for a closer look

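Among 18 sets of 6 libraries (9 genes in each zone), 3 held a library that stood apart from the other 5 by the ratio of its gap to the range, and chance gives this in about 5% of sets. EGLN3 was lowest in the border zone library of animal 1022, at a log2 CPM of 5.91 against 7.17 in the next library. NDRG1 was highest in that same library, at 6.57 against 4.63. CA9 was highest in the border zone library of animal 3622, at 2.65 against 1.43; this library had the smallest total count and the most genes with a count.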

How the results depend on the processing

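Of 135 recomputed fold changes of the 9 genes, 124 kept their direction and their side of the threshold, 2 passed it (NDRG1 by DESeq2 and with library totals) and 9, in 5 genes near 0, changed sign; the cause was not tested. The count of the 9 genes past the threshold was 1, higher, by DESeq2 and with library totals, and 0 in every other setting run. With library totals, which move the median of all genes to 0.32, the median of the 9 genes was 0.23, and EPAS1 (0.23), CA9 (0.15) and DDIT4 (0.27) changed sign; the within-animal medians of HIF1A and EPAS1 were 0.63 and 0.33. With an animal left out, the median of the 9 genes ranged from -0.19 to -0.05, EPAS1 from -0.10 to 0.068, EGLN3 from -0.41 to 0.0050, ADM from -0.19 to 0.20, DDIT4 from -0.11 to 0.071, NDRG4 from -0.12 to 0.24 and ALAS2, a red blood cell marker, from -0.16 to 0.57. EPAS1 was 0.015 without the border zone library of animal 3622 and 0.00378 without that of animal 1022. NDRG4 was -0.012 by DESeq2, -0.012 with its size factors and -0.028 without a filter.

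Over all genes, 287 (285 higher, 2 lower) became 41 (40 and 1) with the animal as a replicate block, 1476 (1186 and 290) by DESeq2, 1551 (1545 and 6) with library totals, 139 (138 and 1) without a filter, 149 (149 and 0) with at least 10 counts in every library and 156 (156 and 0) without the border zone library of animal 3622. Without that of animal 1022, 7 genes were lower. With an animal left out the counts were 0 to 519 (0 to 509 higher, 0 to 10 lower). The animal block removed the calls of LOX, TMEM45A, CALCRL, CA3 and LYZ and of 10 of the 11 fibroblast and matrix genes, and changed no call of the 9 genes. Of 698 values of 47 other named genes, 590 kept direction and call, 72 lost the call, 28 gained it and 8 changed sign. CA9 had 44 to 105 counts per library and ANKRD37 15 to 51.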
